A study of Homo sapiens with 6 samples.

Results

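The 10 genes described here encode the TIM receptors, the TAM receptor tyrosine kinases and the secreted proteins and scavenger receptor that bind phosphatidylserine with them. They were chosen by name as HAVCR1, HAVCR2, TIMD4, AXL, MERTK, TYRO3, GAS6, PROS1, MFGE8 and STAB1, and each matched 1 of the 60605 rows of a table of raw read counts. The counts came from RNA sequencing of UMUC3, an established human bladder cancer cell line. The 3 TIM-1 libraries came from cells infected with TIM-1 in the lentiviral vector PLVX-IRES-Zsgreen, and the 3 empty-vector libraries from cells infected with the same vector without TIM-1. Both vectors carry the green fluorescent protein ZsGreen behind an internal ribosome entry site. The labels name neither the promoter that drives the insert nor whether infected cells were kept as a pool or as clones, and separate cultures are not stated. The p-values therefore cover only library-to-library spread, which may be technical.

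Phosphatidylserine is a lipid that living cells keep on the inner leaflet of the plasma membrane and that dying cells expose on the outer leaflet, where it marks them for uptake. TIM-1 (encoded by HAVCR1), TIM-3 (HAVCR2) and TIM-4 (TIMD4) bind the exposed lipid directly through an immunoglobulin-like domain. The TAM kinases TYRO3, AXL and MERTK bind it through the bridging ligands GAS6 and protein S (PROS1), which carry a vitamin K-dependent domain that holds the lipid. MFGE8 bridges the lipid to integrins, and STAB1 encodes stabilin-1, a scavenger receptor of macrophages and sinusoidal endothelium. TIM-1 is known best from injured kidney tubules, where it turns epithelial cells into phagocytes, and AXL is widely expressed in mesenchymal-like carcinoma cells.

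The upstream windows of 4 members are shown because these genes span the range of levels in cells with the empty vector, from AXL, the highest, through GAS6 to HAVCR1 and TIMD4 at or near a count of 0. Each is the 250 bases before the annotated start in RefSeq (GRCh38.p14), read 5′ to 3′ on the gene's own strand, with CG dinucleotides in capitals. AXL lies at chr19:41218973-41219222 on the plus strand, GAS6 at chr13:113864077-113864326, HAVCR1 at chr5:157059117-157059366 and TIMD4 at chr5:156963227-156963476, all 3 on the minus strand.
AXL: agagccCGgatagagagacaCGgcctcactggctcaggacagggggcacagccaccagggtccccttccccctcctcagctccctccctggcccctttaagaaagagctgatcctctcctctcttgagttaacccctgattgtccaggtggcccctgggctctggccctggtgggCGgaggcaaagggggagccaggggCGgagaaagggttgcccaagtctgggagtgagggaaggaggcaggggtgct
GAS6: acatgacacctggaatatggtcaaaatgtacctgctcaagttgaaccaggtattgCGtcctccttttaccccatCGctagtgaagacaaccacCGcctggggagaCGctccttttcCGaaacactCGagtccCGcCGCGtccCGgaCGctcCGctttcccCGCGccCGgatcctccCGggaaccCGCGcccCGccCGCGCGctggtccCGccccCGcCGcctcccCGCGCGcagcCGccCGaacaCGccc
HAVCR1: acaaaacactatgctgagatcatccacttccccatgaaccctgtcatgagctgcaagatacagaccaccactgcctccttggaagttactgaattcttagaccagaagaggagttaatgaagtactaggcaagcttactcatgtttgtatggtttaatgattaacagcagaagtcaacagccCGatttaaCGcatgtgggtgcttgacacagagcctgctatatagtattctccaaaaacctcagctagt
TIMD4: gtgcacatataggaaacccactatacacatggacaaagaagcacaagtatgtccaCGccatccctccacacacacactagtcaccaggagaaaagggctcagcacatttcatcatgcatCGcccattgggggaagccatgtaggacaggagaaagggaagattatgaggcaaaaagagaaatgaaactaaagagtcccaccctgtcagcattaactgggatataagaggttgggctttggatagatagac

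The AXL window held 4 CG dinucleotides, that of GAS6 31, and those of HAVCR1 and TIMD4 2 each, against a median of 11 over 35116 upstream windows of the same length. A second AXL start, at chr19:41226505-41226754, had 13. The members' windows did not sort by level: STAB1, with no read in any library, had 11 CG dinucleotides, more than the first AXL window and more than the 9 of PROS1, while MERTK had 25. The GC box GGGCGG, searched on both strands, was present in a window of AXL, MERTK, TYRO3, GAS6, PROS1, MFGE8 and STAB1 and in neither the HAVCR1 nor the TIMD4 window, and it is present in 42.6% of all windows. The second AXL window and a further TYRO3 window lacked it, so presence by gene and the share by window are unlike measures. The TATA-box letters TATAAA were in none of the members' windows and are in 10.7% of all. RefSeq windows were found for 9 of the 10 members.

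The libraries held 14312387 to 18605914 counts each, and levels are given as CPM, a gene's count scaled to the size of its library. Replicate 1 stood apart with and without TIM-1: in a fit that included the group, 23.6% of all tested genes differed between replicate 1 and replicates 2 and 3. This split was known from earlier results of these data before the fit was made. Among cell type markers, those of T cells summed to 0.309 to 0.701 CPM in the TIM-1 and 0.422 to 0.750 CPM in the empty-vector libraries, with CD3D, CD3E, CD3G and CD2 at 0. The 9 macrophage markers summed to 2.32 to 2.55 CPM in TIM-1 and 2.13 to 3.77 CPM in empty-vector libraries, mostly ITGAM, with PTPRC, AIF1 and TYROBP at 0, and the 5 endothelial markers to at most 0.276 CPM in TIM-1 and 0.125 CPM in empty-vector libraries. The 12 epithelial and urothelial markers summed to 331 to 443 CPM in TIM-1 and 364 to 565 CPM in empty-vector libraries, mostly KRT18, with EPCAM and UPK3A at 0. The 5 mesenchymal markers summed to 1739 to 2081 CPM in TIM-1 and 1910 to 2414 CPM in empty-vector libraries, mostly VIM. In bulk libraries, fewer cells with a transcript and less of it per cell cannot be told apart.

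Of the 10 members, 7 passed the filter on low counts and were tested, namely HAVCR1, AXL, MERTK, TYRO3, GAS6, PROS1 and MFGE8. HAVCR1 passed it only through the TIM-1 libraries, and it is the gene that the vector carried. Its call and its separation of the groups were therefore set by the design. In edgeR's quasi-likelihood test over all 14479 tested genes, 1 of the 7 was higher with TIM-1 (HAVCR1) and 0 were lower, against 0.0138% of all tested genes called higher and 0.00% called lower (5.49% had an unadjusted p under 0.05 in either direction). The 7 members had a median log2 fold change of 0.07 (0.05 without HAVCR1), against -0.00075 over all tested genes. The values of the TIM-1 and the empty-vector libraries did not overlap for 1 of the 7, again HAVCR1, against 11.7% of all tested genes in either direction and 6.59% with TIM-1 higher. No endogenous member was called or lay apart between the groups. With the replicate number as a block, 5.01% of all tested genes were called and the members called were the same 1.

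**Figure D1:**
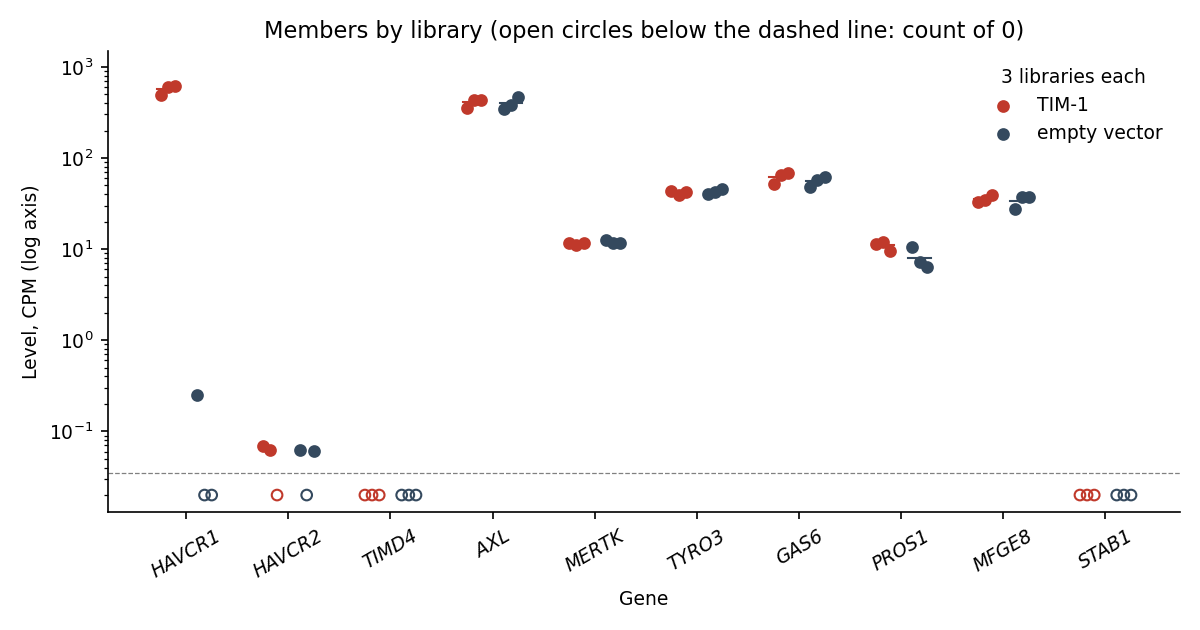
Level of each of the 10 members in CPM (log axis) in every library, with TIM-1 libraries left of empty-vector libraries; points are libraries, short lines are means where no count was 0, and open circles are counts of 0. HAVCR1 separates the groups, at 487 CPM or more with TIM-1 and 0.250 CPM or less with the empty vector, while the other detected members overlap.

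HAVCR1 (ENSG00000113249), at chr5:157029413-157059119 on the minus strand of GRCh38, was carried by the TIM-1 vector and was the member that separated the groups. Its level was 487, 607 and 619 CPM in TIM-1 replicates 1, 2 and 3, against 0.250, 0 and 0 CPM in the empty-vector replicates. The 4 reads in empty-vector replicate 1 were the sum of all HAVCR1 reads without the insert, and the counts of 0 in replicates 2 and 3 allow up to 0.185 and 0.181 CPM, by counting error only. The fold change fitted for it was 12.64 on the log2 scale (SE 0.36, edgeR adjusted p = 3.45e-06), a size that rests on those 4 reads: without empty-vector replicate 1 it was 16.19. Reads from the vector and from the chromosomal gene cannot be told apart in these counts.

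The other TIM genes were at or near the detection limit in both groups. HAVCR2 (ENSG00000135077), which encodes TIM-3, an inhibitory receptor of exhausted T cells and myeloid cells, had 1, 1 and 0 reads in TIM-1 libraries 1, 2 and 3, against 1, 0 and 1 in empty-vector libraries. TIMD4 (ENSG00000145850), which encodes TIM-4 of resident macrophages, had 0 reads in all 6 libraries. The same was true of STAB1 (ENSG00000010327). A count of 0 in a single library allows up to between 0.162 and 0.207 CPM, so a gene below that level can go without a read there. The single reads of HAVCR2 stood at 0.0602 to 0.0689 CPM. No member of the TIM family other than the vector gene passed the filter, and no fold is given for these 3 genes.

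AXL, the kinase for which GAS6 has the highest affinity, was the most abundant endogenous member per kilobase of exons. The gene (ENSG00000167601, chr19:41219203-41261766, plus strand) stood at 351, 433 and 434 CPM in TIM-1 replicates 1, 2 and 3, against 347, 381 and 462 CPM in the empty-vector replicates. The groups overlapped, with replicate 1 the lowest in both. The TIM-1 mean was 406 ± 47.1 CPM and the empty-vector mean 396 ± 58.8 CPM (SD, n = 3 each). The log2 fold change came to 0.03 (SE 0.12, 95% interval -0.24 to 0.31, edgeR adjusted p = 0.986), so the interval of the difference spans 0.849-fold to 1.24-fold.

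TYRO3 and MERTK, the other TAM kinases, were at lower levels and also overlapped between the groups. TYRO3 (ENSG00000092445, chr15:41557675-41583586, plus strand), a kinase best known from the nervous system, had 43.4, 39.5 and 42.1 CPM in TIM-1 replicates 1, 2 and 3, against 40.3, 42.1 and 45.2 CPM in the empty-vector replicates. Its log2 fold change was -0.03 (95% interval -0.25 to 0.19, edgeR adjusted p = 0.984). MERTK (ENSG00000153208, chr2:111898479-112029561, plus strand), the TAM kinase of phagocytes and retinal pigment epithelium, had 11.7, 11.0 and 11.6 CPM in TIM-1 cells, against 12.6, 11.8 and 11.7 CPM in empty-vector cells. It was lower with TIM-1 in each same-numbered pair, by a log2 fold change of -0.07 that did not pass the test (95% interval -0.37 to 0.22, edgeR adjusted p = 0.956). The share of all tested genes lower in each pair was not counted. These 2 had the smallest coefficients of variation of the tested members, between 3.33% and 5.85% within a group. MERTK had 170 to 215 reads per library, too few for a spread this small to be told from counting error.

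**Figure D2:**
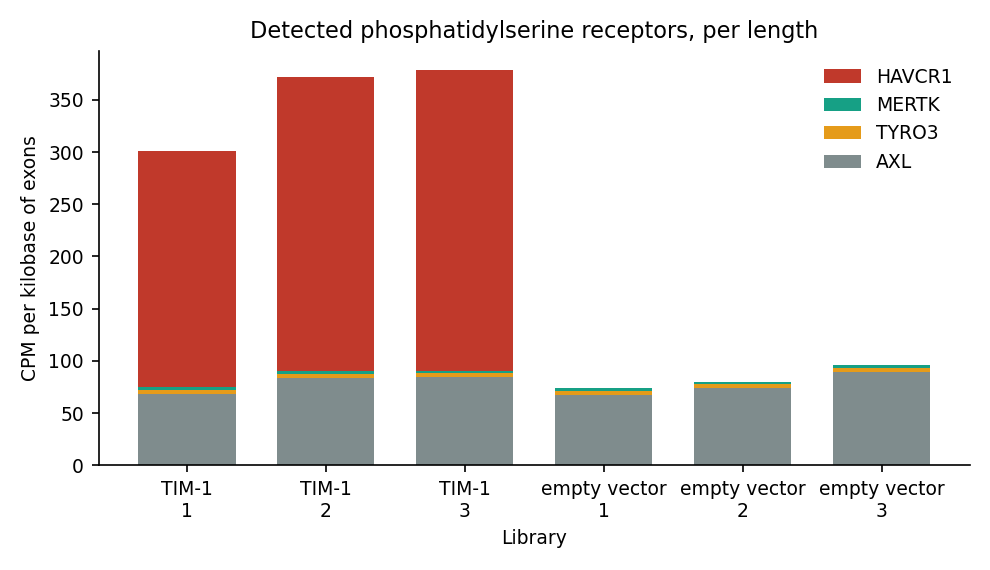
Summed level of HAVCR1, MERTK, TYRO3 and AXL in CPM per kilobase of exons in each library, TIM-1 libraries on the left. The TIM-1 bars reach 301 to 378, of which HAVCR1 makes up 75.2% to 76.1%, and the empty-vector bars 73.8 to 96.2, nearly all of it AXL.

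Levels of different genes are compared per kilobase of annotated exons. On that scale, in cells with TIM-1 the order was HAVCR1 (265 ± 33.9 CPM per kilobase), AXL (78.7 ± 9.14), GAS6 (10.3 ± 1.49), MFGE8 (5.22 ± 0.445), TYRO3 (3.805 ± 0.182), MERTK (2.43 ± 0.0808) and PROS1 (2.02 ± 0.224; SD, n = 3 each), and no neighbours among these 7 overlapped. With the empty vector AXL led at 76.9 ± 11.4 CPM per kilobase, followed by GAS6, MFGE8, TYRO3, MERTK and PROS1, and here MFGE8 and TYRO3 overlapped. Among 14368 tested genes with an annotated length, HAVCR1 ranked above 99.2% in TIM-1 cells, and AXL above 96.7% in TIM-1 cells and 96.5% in empty-vector cells. The lower part of the order depends on the length used. Per kilobase of coding sequence, MFGE8 and GAS6 stood side by side at 30.8 and 30.5 with TIM-1 and at 29.3 and 27.5 with the empty vector, and PROS1 (5.17) stood above MERTK (3.81) with TIM-1.

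The receptors among the members are HAVCR1, HAVCR2, TIMD4, AXL, MERTK, TYRO3 and STAB1. Receptors outside the members, such as the one encoded by ADGRB1, are not in their sum. The vector gene brought the summed level of these 7 receptors to 350 ± 42.9 CPM per kilobase with TIM-1, against 83.4 ± 11.5 with the empty vector (SD, n = 3 each). HAVCR1 made up 75.2%, 75.8% and 76.1% of that sum in TIM-1 replicates 1, 2 and 3, against 0.158%, 0% and 0% in empty-vector replicates. These shares divide HAVCR1 by the 2151 bases of its chromosomal exons, and the labels do not give the length of the insert. Over the 1203 bases of its longest coding sequence, HAVCR1 would stand at 474.5 CPM per kilobase with TIM-1, and its share would be larger if only its own length changed. The remaining receptors summed to 84.99 ± 8.95 CPM per kilobase with TIM-1 and 83.4 ± 11.6 with the empty vector. AXL held 92.6 ± 1.08% of the TAM sum with TIM-1 and 92.2 ± 0.885% with the empty vector, a difference smaller than either SD (n = 3 each).

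Within the TIM-1 libraries the ratio of HAVCR1 to AXL varied less than either gene. HAVCR1 varied by a coefficient of variation of 12.8% and AXL by 11.6%, both lowest in replicate 1, while the ratio of their counts was 1.385, 1.403 and 1.426 in replicates 1, 2 and 3. That ratio varied by 1.47%, and the counting error of the ratio in a single library was 1.45% to 1.84%. Of 9291 genes at 10 CPM or more, 88 (0.947%) had a ratio to HAVCR1 that varied as little over these 3 libraries. Genes with fewer reads than AXL have a larger counting error of that ratio. The share therefore depends on level and does not show that such a ratio is rare. This is a description of 3 libraries.

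GAS6 encodes the bridging ligand that all 3 TAM kinases share. The gene (ENSG00000183087, chr13:113820549-113864067, minus strand) stood at 51.9, 65.5 and 68.7 CPM in TIM-1 replicates 1, 2 and 3, against 48.5, 57.3 and 62.2 CPM in the empty-vector replicates. The TIM-1 value was the higher one in each same-numbered pair, as for 20.0% of all tested genes, yet the groups overlapped, with replicate 1 the lowest in both. For GAS6 the log2 fold change came to 0.15 (SE 0.13, 95% interval -0.15 to 0.44, edgeR adjusted p = 0.921), and 0.15 with the block (95% interval -0.0049 to 0.30, edgeR adjusted p = 0.292).

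2 non-coding neighbours of GAS6 are given because they touch its counts or its start, and they were chosen after their values were seen. GAS6-DT is transcribed away from GAS6 from a start 101 bases upstream, inside the GAS6 window printed above. TIM-1 libraries 1, 2 and 3 had 60, 83 and 163 of its reads, against 54, 42 and 50 in empty-vector libraries. GAS6-AS1 lies on the strand opposite to GAS6 and shares 421 exonic bases with it, 7.01% of the GAS6 exons. It had 54, 43 and 54 reads in TIM-1 cells, against 25, 25 and 21 in empty-vector cells. Neither gene overlapped between the groups in CPM, as for 11.7% of all tested genes in either direction and 6.59% with TIM-1 higher.

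The unpaired log2 fold changes were 1.01 for GAS6-DT (SE 0.30, edgeR adjusted p = 0.644) and 1.08 for GAS6-AS1 (SE 0.27, edgeR adjusted p = 0.575). Without the low-count filter GAS6-DT passed in the unpaired fit (edgeR adjusted p = 0.0337) and GAS6-AS1 did not (0.241). Both passed with the replicate number as a block, at edgeR adjusted p = 0.00326 for GAS6-DT and 0.0184 for GAS6-AS1. In the blocked fit the call of GAS6-AS1 was lost without each pair in turn (edgeR adjusted p from 0.0687 to 0.104) and that of GAS6-DT without the replicate 3 pair (0.231). Neither was called by DESeq2 with the block (adjusted p = 0.189 for GAS6-DT and 0.318 for GAS6-AS1). TIM-1 replicate 3, at 8.78 CPM, was the highest value of GAS6-DT, and its unpaired log2 fold change was 0.63 without that library. No source used here says whether counting used the strand, so reads of GAS6 and of GAS6-AS1 cannot be told apart where their exons overlap.

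**Figure D3:**
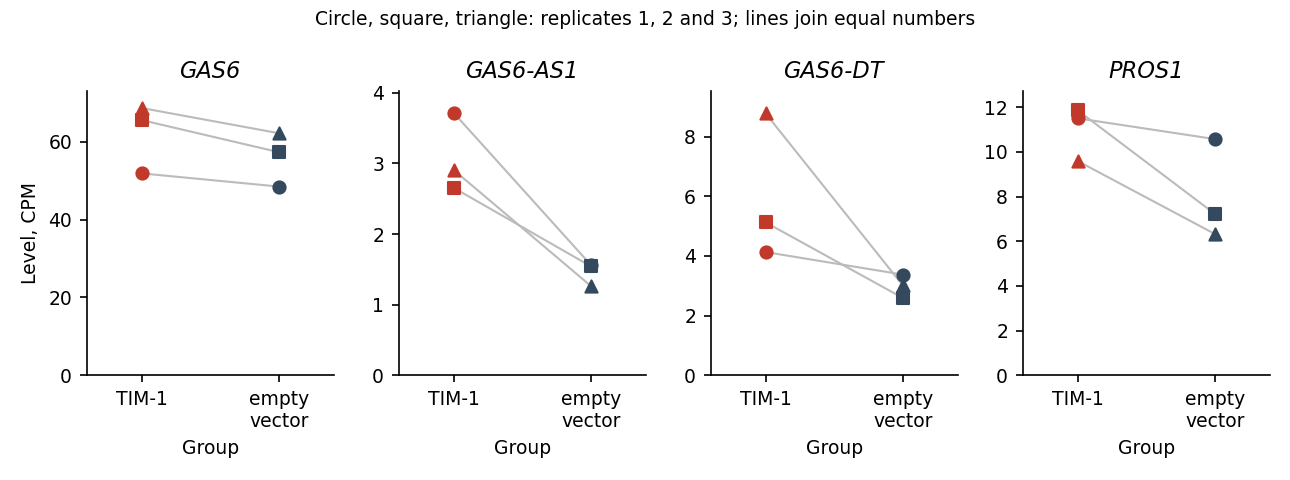
Level in CPM of GAS6, its non-coding neighbours GAS6-AS1 and GAS6-DT, and PROS1, with TIM-1 left and empty vector right in each panel; markers are libraries and lines join equal replicate numbers. All lines slope down to the right, with the groups apart for GAS6-AS1 and GAS6-DT and overlapping for GAS6 and PROS1.

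PROS1, which encodes protein S, an anticoagulant cofactor that is also a ligand of TYRO3 and MERTK, showed the largest difference among the endogenous members. The gene (ENSG00000184500, chr3:93873033-93980003, minus strand) stood at 11.5, 11.9 and 9.59 CPM in TIM-1 replicates 1, 2 and 3, against 10.6, 7.22 and 6.33 CPM in the empty-vector replicates. Empty-vector replicate 1 lay above TIM-1 replicate 3, so the groups overlapped, while the TIM-1 library was the higher one in each pair, as for 20.0% of all tested genes. The TIM-1 mean was 11.0 ± 1.22 CPM and the empty-vector mean 8.04 ± 2.24 CPM (SD, n = 3 each).

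PROS1 differed by 0.45 on the log2 scale (SE 0.21, 95% interval -0.01 to 0.91, edgeR adjusted p = 0.891). With the block it was 0.47 (SE 0.15) and lay just outside the threshold (edgeR adjusted p = 0.0501). It moved with replicate 1: without empty-vector replicate 1 the unpaired value was 0.69 (edgeR adjusted p = 0.202), and the blocked fit without the replicate 1 pair gave 0.66 (edgeR adjusted p = 0.0166). Without the pairs of replicates 2 and 3 the blocked adjusted p was 0.506 and 0.197. It was 0.472 with DESeq2, 0.0897 when the block set only replicate 1 apart and 0.0496 with RLE factors. The ratio of GAS6 to PROS1 per kilobase was 5.20 ± 1.21 with TIM-1 and 6.75 ± 2.41 with the empty vector (SD, n = 3 each), a difference within the spread.

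MFGE8 (ENSG00000140545, chr15:88898683-88913411, minus strand), the milk fat globule protein whose discoidin domains hold phosphatidylserine, overlapped between the groups as well. TIM-1 replicates 1, 2 and 3 had 33.1, 35.0 and 39.1 CPM of it, against 27.8, 37.4 and 37.1 CPM in empty-vector replicates. The log2 fold change was 0.07 (95% interval -0.24 to 0.37, edgeR adjusted p = 0.960).

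**Figure D4:**
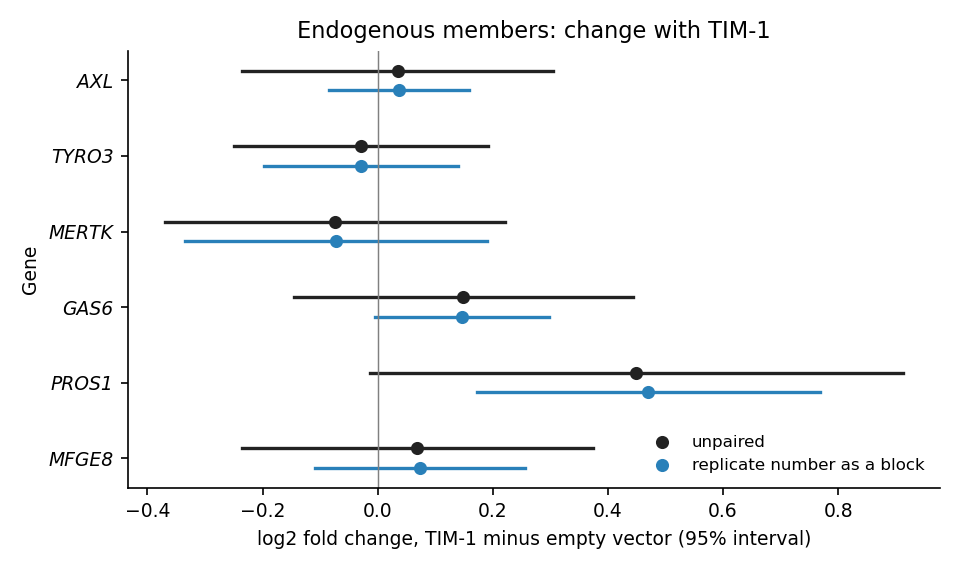
Log2 fold change, TIM-1 minus empty vector, of the 6 tested endogenous members with 95% intervals, from the unpaired fit (black) and with the replicate number as a block (blue). The unpaired intervals all include 0, and with the block that of PROS1, from 0.17 to 0.77, lies above it without passing the adjusted threshold.

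The split between replicate 1 and the other replicates reached the members. Replicate 1 was set apart because earlier results of these data showed that it differed in both groups. The p-values of this contrast therefore do not test whether replicate 1 differs. With the group as a term, AXL was lower in replicate 1 by a log2 difference of -0.29 (edgeR adjusted p = 0.00408), GAS6 by -0.34 (0.00348) and MFGE8 by -0.29 (0.0330), so 3 of 7 tested members were lower, against 12.0% of all tested genes. AXL averaged 349 CPM in replicate 1 and 427 CPM in replicates 2 and 3. PROS1 differed the other way, by 0.37 (edgeR adjusted p = 0.101), and TYRO3 (-0.01, edgeR adjusted p = 0.936) and MERTK (0.08, 0.715) did not pass. The AXL call was lost without TIM-1 replicate 1 and without empty-vector replicate 1 (edgeR adjusted p = 0.104 and 0.0965), that of GAS6 without TIM-1 replicate 1 (0.0962), and that of MFGE8 without TIM-1 replicate 3, empty-vector replicate 1 and empty-vector replicate 2 (0.118, 0.488 and 0.0799). HAVCR1 was at -0.31 in replicate 1 and did not pass (edgeR adjusted p = 0.0634). It passed when empty-vector replicate 1 was left out (-0.33, 0.0338) or empty-vector replicate 3 was (-0.32, 0.00265), and without TIM-1 replicate 1 the value was 5.11 (0.0330), where replicate 1 is left with 4 reads.

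Other genes of the pathway were described from 5 lists. In the unpaired test 0 genes of any list passed, and 2 had an unadjusted p under 0.05, as had 5.49% of all tested genes. With the block 3 were higher with TIM-1 and 1 was lower, where 3.22% and 1.79% of all tested genes were. Without the pairs of replicates 1, 2 and 3 the blocked fit had 6, 1 and 2 list genes higher and 0, 0 and 1 lower, and with only replicate 1 set apart 3 and 0. Over all tested genes the fits without a pair called 440, 152 and 339 higher and 398, 57 and 134 lower. With only replicate 1 set apart, 348 and 162 of all tested genes were called. Of 13 other phosphatidylserine receptors and partners 8 were tested, with a median log2 fold change of 0.07, and the 1 that rose with the block was LRP1, an endocytic receptor that acts with calreticulin in uptake. LRP1 averaged 90.4 ± 28.1 CPM in TIM-1 cells, against 68.7 ± 15.8 CPM in empty-vector cells (SD, n = 3 each), with a blocked log2 fold change of 0.38 (edgeR adjusted p = 0.000355) that passed in all 6 blocked alternatives. The 6 alternatives all keep a replicate term. LRP1 was also higher in replicate 1, by 0.64 (edgeR adjusted p = 5.40e-07). Its groups overlapped, and in the unpaired fit it did not pass (0.39, edgeR adjusted p = 0.906). Without TIM-1 replicate 1 the unpaired value was 0.11 (edgeR adjusted p = 0.960). ITGAV and ITGB5, which pair as an integrin that MFGE8 binds, stood at 157 and 133 CPM with TIM-1 and at 147 and 126 CPM with the empty vector.

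Of 17 genes of engulfment 14 were tested, with an unpaired median of -0.0075, and with the block 2 were higher and 1 lower. TGM2, a transglutaminase that acts in the uptake of dying cells, had no overlap between the groups, at 633 ± 7.77 CPM in TIM-1 cells, against 531 ± 20.3 CPM in empty-vector cells (SD, n = 3 each). The groups lay apart with TIM-1 higher for 6.59% of all tested genes. Its blocked log2 fold change was 0.25 (edgeR adjusted p = 0.00378, and 0.237 without the replicate 2 pair), and its difference in replicate 1 was 0.04 (edgeR adjusted p = 0.671). GULP1, an adaptor of engulfment receptors, was higher by 0.61 (edgeR adjusted p = 0.0197), and ANXA1, an annexin exposed on dying cells, was lower by a log2 fold change of -0.21 (edgeR adjusted p = 0.0205). Both overlapped between the groups and also differed in replicate 1, GULP1 by 0.65 (edgeR adjusted p = 0.00715) and ANXA1 by -0.60 (3.04e-07). Their calls were lost in the blocked fit without the replicate 2 pair (0.134 for GULP1 and 0.354 for ANXA1), GULP1 also without the replicate 3 pair (0.172) and ANXA1 also without the replicate 1 pair (0.0978). GULP1 was not called by DESeq2 with the block (adjusted p = 0.329), and ANXA1 missed the threshold when the block set only replicate 1 apart (edgeR adjusted p = 0.0534). CALR, the calreticulin gene, averaged 1492 CPM in TIM-1 cells, against 1387 CPM in empty-vector cells, and did not pass.

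In the remaining lists 0 genes passed in either fit with all libraries. Of 17 genes that expose, return or make phosphatidylserine 13 were tested, with a median log2 fold change of 0.03. The scramblase gene ANO6 averaged 212 CPM in TIM-1 cells, against 194 CPM in empty-vector cells, and TMEM30A, the partner subunit of flippases, 168 and 167 CPM. Without the replicate 1 pair ANO6 passed in the blocked fit (0.25, edgeR adjusted p = 0.0301), and it was 0.64 higher in replicate 1 (3.58e-07). Of 11 ligands, sheddases and signalling partners of TIM proteins 6 were tested, with a median of 0.13, and HMGB1, a TIM-3 ligand, averaged 678 CPM in TIM-1 cells, against 684 CPM in empty-vector cells. BAG6, which binds the TIM-3 tail, averaged 290 CPM in TIM-1 cells, against 311 CPM in empty-vector cells. Of 11 genes of TAM ligand processing and signalling 9 were tested, with a median of 0.04. PTPN11, a phosphatase of receptor tyrosine kinase signalling, averaged 240 CPM in TIM-1 cells, against 252 CPM in empty-vector cells, and the adaptor gene GRB2 131 and 134 CPM.

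By the correlation of log2 CPM over the 6 libraries, the genes most like HAVCR1 among 9292 genes at 10 CPM or more were FHL1 (Pearson r = 0.996), MBNL2 (0.991) and PLS3 (0.986). HAVCR1 itself separates the groups, so this choice picks genes that do so too. That the group means of all 3 differ in the same direction follows from the choice. FHL1 averaged 75.1 ± 1.79 CPM in TIM-1 cells, against 47.6 ± 2.09 CPM in empty-vector cells (SD, n = 3 each). Those most like AXL were TAFAZZIN (0.996), EIF4B (0.987) and LAPTM4B (0.986). These correlations over 6 libraries that share groups and replicate numbers are descriptions.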

How the data were processed

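RNA sequencing of UMUC3 cells gave 6 libraries, grouped by the treatment in the labels, and replicates were numbered as in the titles. The deposited table holds raw counts, not normalized, for Ensembl genes. Per the submitters' processing notes, HISAT2 2.0.5, featureCounts 1.5.0-p3, DESeq2 1.16.1 and hg38 were used. No source used here gives the annotation, the use of strand or how reads with several alignments were treated. Positions, exon lengths and overlaps came from GENCODE 29 (GRCh38, the same assembly), and upstream windows from RefSeq.

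All genes were tested with edgeR 4.0.16 in R 4.3.3 (quasi-likelihood F test, robust, TMM, filterByExpr with a minimum count of 10), with p-values adjusted over all tested genes by the Benjamini-Hochberg method at a threshold of 0.05. CPM uses TMM-scaled totals. Standard errors and 95% intervals derive from the F statistic. Floors take 3 counts for a count of 0 and cover counting error only. Totals ran from 14312387 to 18605914, which sets the precision of low counts. DESeq2 1.42.0, other normalization, no filter, and leaving out each library were alternatives, and the test was checked on simulated data. There the unpaired fit recovered 22.4% of genes changed by 0.5 on the log2 scale and 86.6% of those changed by 1. The simulated data for that fit had a fixed dispersion and no replicate effect, while the libraries here differed by replicate.

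With group means removed, libraries of equal number correlated at 0.530, 0.227 and 0.264 for replicates 1, 2 and 3, all above the limit of 0.1, so the block is used as a second fit. The pairing comes from the data, and pairs with different numbers reached 0.259. The members and lists were chosen with earlier results of these data known. All members are named, and in each list up to 3 called genes with the smallest p, or where none was called the 2 of highest mean CPM, in the unpaired and, chosen after seeing the data, the blocked fit. For HAVCR1 and AXL the 3 genes of most similar pattern are named.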

Additional observations from a re-analysis of the deposited data

How the results depend on the processing

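Of 175 alternative values of the members' log2 fold changes, 149 kept their direction and their side of the threshold. Both counts include HAVCR1, whose call with TIM-1 was set by the design. The unpaired test called 2 genes higher and 0 lower, 466 and 259 with the replicate block, 24 and 1 with DESeq2, 60 and 12 without the low-count filter, and 1 to 8 and 0 to 1 with single libraries left out (8 and 1 without empty-vector replicate 1). The blocked test gave 131 higher and 78 lower with DESeq2, 348 and 162 when the block set only replicate 1 apart, and 152 to 440 and 57 to 398 (134 without replicate 3) without single pairs. HAVCR1 was called in each unpaired and blocked fit, which the design had set, and the block changed no other member's call. PROS1 passed in the blocked fit with RLE factors (0.47, edgeR adjusted p = 0.0496) but not with DESeq2 (adjusted p = 0.472) or when the block set only replicate 1 apart (0.0897), and ran from 0.35 to 0.66 without single pairs (0.0166 to 0.506). The cause was not tested for any of these. The alternatives to the blocked fit, the coding length and the libraries left out of the replicate 1 contrast were chosen after seeing the data. The replicate 1 contrast itself was set up because earlier results of these data showed replicate 1 apart.

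With single libraries left out, log2 fold changes near 0 changed sign: AXL -0.0559 to 0.157, TYRO3 -0.0697 to 0.0159, MFGE8 -0.0616 to 0.138, ITGB5 -0.0773 to 0.217, ANO6 -0.0564 to 0.434, TMEM30A -0.0243 to 0.0293, GRB2 -0.137 to 0.0223, CALR -0.0351 to 0.228 and HMGB1 -0.0603 to 0.0319. TMEM30A stood at -0.00040 with DESeq2, -0.0021 without the filter and -0.00068 with DESeq2 and the block. In the blocked fit without single pairs, AXL ran from -0.0376 to 0.104, TYRO3 from -0.1003 to 0.00924, MFGE8 from -0.0123 to 0.161, ITGAV from -0.0204 to 0.197, TMEM30A from -0.0086 to 0.0171 and HMGB1 from -0.0536 to 0.0165 (0.0060 without replicate 2). For replicate 1 against replicates 2 and 3, HAVCR1 stood at 2.04 with DESeq2 (adjusted p = 0.404), passed without the filter (-0.33, edgeR adjusted p = 0.00893) and ran from -0.33 to 5.11 with single libraries left out, and MFGE8 missed the threshold with DESeq2 (-0.29, adjusted p = 0.0783). In that contrast AXL ran from -0.35 to -0.23, GAS6 from -0.37 to -0.30, MFGE8 from -0.42 to -0.16, TYRO3 from -0.115 to 0.092 and GAS6-DT from -0.76 to 0.27. With the longest transcript as length, HAVCR1 in TIM-1 cells stood at 309 CPM per kilobase and 76.7% of the receptor sum. With the longest coding sequence it stood at 474.5 and 73.5%, and AXL at 151 with TIM-1 and 148 with the empty vector. Both alternatives change the length of every gene together, so neither covers an insert shorter than the chromosomal exons of HAVCR1. Depth limits HAVCR2, TIMD4 and STAB1, which had at most 1 read per library.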

Other observations

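ADGRB1, which encodes the phosphatidylserine receptor BAI1, was named after its values were seen. Its level was 124, 118 and 124 CPM in TIM-1 libraries 1, 2 and 3, against 122, 117 and 124 CPM in empty-vector libraries. CD47, which encodes a surface signal that restrains uptake and was also named after its values were seen, stood at 95.03, 99.65 and 100.3 CPM with TIM-1 and at 94.3, 81.9 and 84.8 CPM with the empty vector (blocked edgeR adjusted p = 0.133).

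Several listed genes that most cells use were counted at or near 0. VKORC1, whose product recycles the vitamin K that GAS6 and protein S need, had 5, 0 and 5 reads in TIM-1 libraries 1, 2 and 3, against 10, 0 and 0 in empty-vector libraries. PLSCR3 had 0 reads with TIM-1 and 3 reads in 1 empty-vector library, and PIK3R2 had 1 to 5 reads per library. In GENCODE 29, 74.5% of the exon bases of VKORC1, 76.6% of those of PLSCR3 and 87.2% of those of PIK3R2 lie in exons of other annotated genes, against 0% for HAVCR1, MERTK, TYRO3, PROS1 and MFGE8, 1.30% for AXL and 7.01% for GAS6. No source used here says how reads in shared exons were counted, and the part of shared exons in these low counts was not tested. ITGB3, with 51.6% of its exon bases shared, had 39 to 72 reads per library, and ABCA1, with 0% shared, had 0 to 6. XKR8, a scramblase gene with 1.24% of its exon bases shared, had 0 reads in all 6 libraries.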
